A study of Mus musculus with 12 samples.

Results

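The differentiation of Ezh2-null haematopoietic progenitors toward neutrophils was described from 4 of 12 microarrays, 2 of undifferentiated cells at day 0 and 2 of cells at day 6. The progenitors were HoxB8-ER cells, mouse bone marrow cells of C57BL/6 background immortalised with a fusion of the homeobox protein HOXB8 to an oestrogen receptor domain. They grow as progenitors in the presence of estradiol, and its removal starts their maturation to neutrophils, which the labels place at day 6. Ezh2-null (labelled Ezh2-/-) and wild-type cells came from bone marrow of littermates and were compared at the same stages, with 2 arrays for each of these 4 groups and 250 ng of RNA for each array. The remaining 4 arrays were of wild-type cells differentiated with the EZH2 inhibitor GSK343 or its vehicle. They entered the estimate of the spread and the choice of the cluster for genes with several. Their median signals over clusters were 3.88 to 3.96, against 4.54 to 4.65 on the other 8 arrays. Mouse Transcriptome Array 1.0 chips were used, on which all 65956 transcript clusters that were not control probe sets were compared, and 30743 genes had a cluster with a single gene symbol. The labels do not say how many cell lines or separate cultures stood behind the arrays of a group. Genotype and cell line therefore cannot be told apart, and the p-values reflect array-to-array spread, which may be technical.

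EZH2 is the main catalytic subunit of Polycomb repressive complex 2 (PRC2), which places methyl groups on lysine 27 of histone H3 and keeps many developmental genes silent. In the bone marrow, progenitors that mature to neutrophils make the primary granule proteins first, then the secondary and late granule proteins, while they leave the cell cycle and take up the receptors, oxidase and adhesion molecules of the mature cell. Mast cells, basophils and red cells arise from related progenitors under GATA transcription factors.

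Ezh2 was checked before any other gene. Its signal was 11.57 and 11.65 on the log2 scale on the 2 undifferentiated wild-type arrays and 9.10 and 9.45 on the 2 undifferentiated Ezh2-null arrays. At day 6 it was 8.31 and 8.34 in the wild type and 8.74 and 9.02 in the cells labelled Ezh2-null. The undifferentiated null arrays lay below the wild-type ones, whereas the day-6 arrays labelled null lay above them. Ezh2 thus fell by 3.29 in the wild type (adjusted p = 1.23e-06) and changed by -0.39 in the cells labelled Ezh2-null (SE 0.15, adjusted p = 0.113). The signal is a single summary of all exons, and which exons were deleted is not stated, so that the day-6 level does not check the genotype, and the day-6 cells are called "labelled Ezh2-null" throughout. Every direction given for them rests on that label.

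All values below are log2 signals, given for the first and then the second array of a group. Changes are day 6 minus day 0, with standard errors (SE) and p-values from limma's moderated test adjusted by the Benjamini-Hochberg method over all clusters, and a gene is said to rise or fall where the adjusted p was under 0.05. An array's background is the level under which 95% of its 23 antigenomic control sets lay, which was between 4.97 and 5.79 on these 8 arrays. The median of the 5222 negative control sets was higher on all of them but the first undifferentiated null array. On the second day-6 null array it was 6.14, against a background of 4.97. Where one group lay at or under the background on both arrays, the fold change is given as "at least". The 2 undifferentiated null arrays correlated at r = 0.984 across clusters and the 2 day-6 arrays at r = 0.993, and the median gap between arrays over all genes was -0.05 and 0.02. The gap between the 2 undifferentiated null arrays had a median of over 0.5 in size in 10 of 43 gene lists, and it is given beside them. It lay between -0.46 and 0.43 in the others. A fitted difference that rests on a group at background has no exact size, and is printed for its direction and test. In some lists 1 called gene lay at background on every null array. These were the mast and basophil protease, mast cell receptor, Toll-like receptor and granulocyte and monocyte factor lists. The stem and progenitor, interferon-stimulated and developmental factor lists were the others, beside the HOX list.

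Differentiation changed 14799 clusters in the Ezh2-null cells, 22.4% of those tested, of which 7710 rose and 7089 fell, and 9131 changed at least 2-fold. Among the 30743 genes, 3012 rose (9.8%) and 5437 fell (17.7%). In the wild type 3727 genes rose (12.1%) and 5906 fell (19.2%) over the same step. The 2 comparisons share no array, and 10187 clusters were called in the same direction in both, which is 68.8% of the null calls and 61.1% of the wild-type calls. Across genes the 2 sets of changes had r = 0.794, a description over genes that share arrays and are not independent. The change itself differed between the genotypes for 2911 clusters (4.41%), tested as the interaction of genotype and stage. By gene, 1286 had the more positive change in the null cells (4.18%) and 780 the more negative (2.54%).

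The 1286 genes with the more positive change in the null cells were made up chiefly of genes that fell in both genotypes, but by less in the null (494), and of genes that fell in the wild type without a called change in the null (382). Another 254 rose in the null and were not called in the wild type, 84 rose in both by more in the null, and 72 rose in the null and fell in the wild type. Of the 780 with the more negative change, 257 rose in the wild type and were not called in the null, 239 fell in the null and were not called in the wild type, and 168 rose in both by less in the null.

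**Figure D1:**
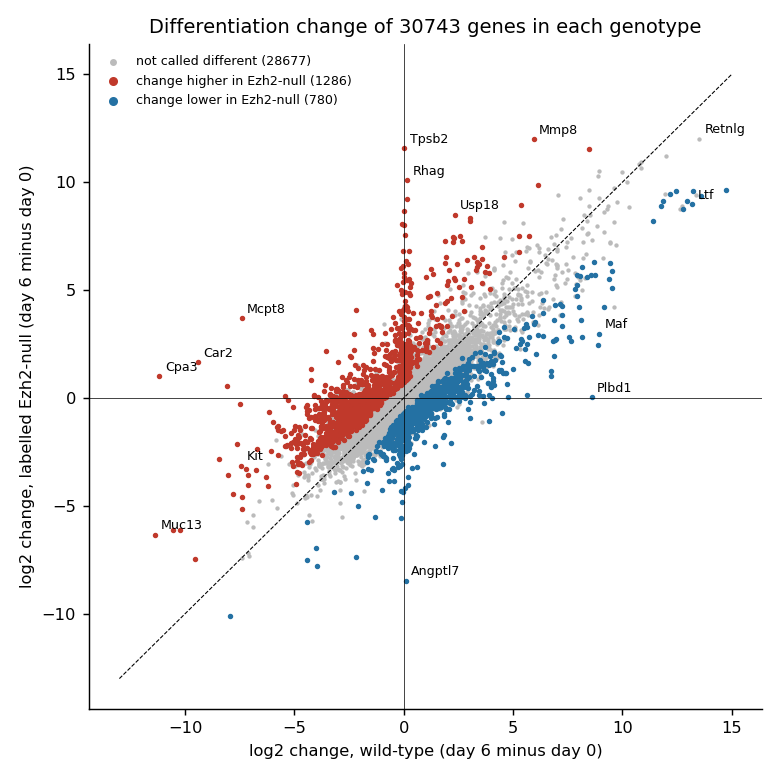
Change of 30743 genes on differentiation in wild-type cells (x axis) and in cells labelled Ezh2-null (y axis), both as log2 day 6 minus day 0. Red points mark 1286 genes with a more positive change in the null cells and blue points 780 with a more negative one, and most genes lie along the diagonal (r = 0.794).

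The largest rises of the Ezh2-null cells included genes known from phagocytes, such as Mpeg1 and Mmp9, and the mast cell and red cell genes Tpsb2 and Rhag. Mpeg1, which encodes the pore-forming protein perforin-2 of phagocytes, stood at 4.13 and 3.93 in the undifferentiated null cells and at 15.72 and 15.38 at day 6, a rise of at least 1016-fold (adjusted p = 6.86e-09). Retnlg, a resistin-like protein of granulocytes, went from 5.70 and 5.05 to 17.79 and 16.96, at least 3615-fold. Both genes were at background in undifferentiated cells and among the brightest at day 6. The other large rises included the gelatinase gene Mmp9 (at least 1085-fold), the transmembrane glycoprotein gene Gpnmb (at least 907.5-fold) and the metalloprotease gene Adam8 (at least 685.5-fold). Further ones were the complement C3a receptor gene C3ar1 (at least 592.2-fold), the interleukin-36 gene Il1f9 (at least 452.7-fold), Cd24a (10.27 log2 units) and the receptor gene Lilr4b (10.64). These 9 genes rose in the wild type as well, and the change differed between genotypes only for Mpeg1 among them, by 3.07 (adjusted p = 0.000626). Of the 15 largest rises chosen by the naming rule, Tpsb2 and Rhag were not called in the wild type.

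The secondary granule genes rose in the cells labelled Ezh2-null, but several of them by less than in the wild type. Of 12 measured members, 11 rose with a list median of 6.27, and all 12 rose in the wild type with a median of 7.87. Over all genes the medians were -0.04 and -0.01. The change was more negative in the null for 5 members and more positive for 1, Mmp8. On the second undifferentiated null array the members lay lower than on the first, with a median gap of -1.09, and without that array the count of smaller rises was 9. The part of this gap in the result was not tested.

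Ltf, the iron-binding lactoferrin of secondary granules, was 7.68 and 6.41 in the undifferentiated null cells and 15.81 and 16.26 at day 6. In the wild type it went from 4.79 and 4.88 to 18.38 and 17.66. The null cells began higher and ended lower, and the rise was smaller in the null (interaction -4.20, SE 0.55, adjusted p = 0.00346). Camp, the cathelicidin antimicrobial peptide gene, reached 9.63 and 10.11 at day 6 in the null and 15.31 and 13.89 in the wild type from like levels at day 0 (5.87 and 5.42 in the null, 5.63 and 5.25 in the wild type). Its rise of 4.22 in the null was smaller than the wild-type rise of 9.16 (interaction -4.94, adjusted p = 0.00157). Cd177, a surface glycoprotein of neutrophils, followed the same pattern, at 7.25 and 6.98 and 12.48 and 10.70 at day 6, with a rise of at least 2.95-fold in the null and at least 70.8-fold in the wild type. Lrg1, a glycoprotein gene of this list, stood at 5.53 and 5.01 at day 6 in the null, and its change of 1.25 did not pass the test (adjusted p = 0.18), whereas it was 11.87 and 9.72 in the wild type. For these 4 genes the day-6 arrays of the genotypes did not overlap. Lcn2, the siderophore-binding lipocalin, rose by 5.71 in the null and 8.74 in the wild type, and the difference (adjusted p = 0.0184) reached 0.071 without the first undifferentiated wild-type array, 1 of 3 whose removal ended the call.

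The rest of the list rose with no called shortfall, and Mmp8 rose by more than in the wild type. Mmp8, the neutrophil collagenase, was at 6.09 and 5.08 in undifferentiated null cells and at 12.48 and 11.55 in undifferentiated wild-type cells, and at 18.16 and 16.97 and 18.35 and 17.57 at day 6. The groups differed at day 0 and overlapped at day 6, so that the rise was larger in the null by 6.03 (adjusted p = 0.00154). Chil3, a chitinase-like lectin, rose by 9.42, and Ngp, a cathelicidin-related granule protein, by 8.77, and neither difference from the wild type passed the test (adjusted p = 0.0888 and 0.0654). Olfm4, Chil1, Hp and Pglyrp1 rose by 7.10, 6.35, 6.19 and 6.02.

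**Figure D2:**
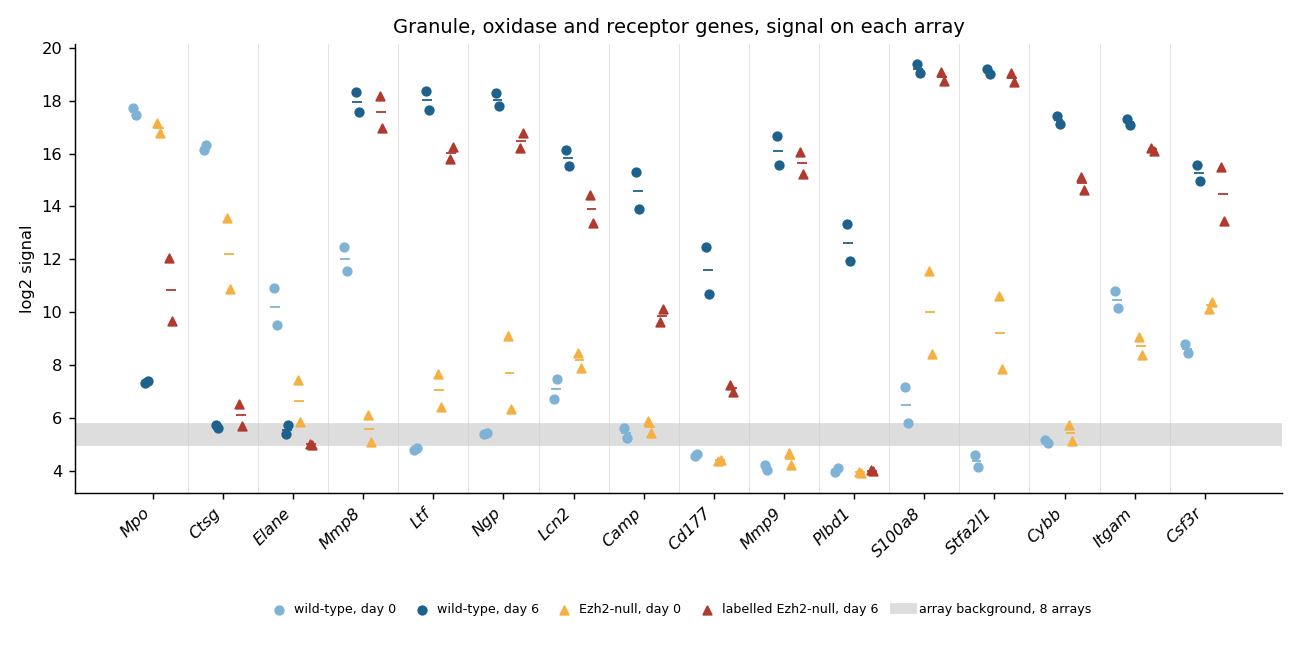
Log2 signal of 16 granule, oxidase and receptor genes on each of 8 arrays (circles, wild type, triangles, Ezh2-null, light colours day 0, dark colours day 6), with group means as short bars and the range of array backgrounds (4.97 to 5.79) in grey. Camp, Cd177 and Plbd1 lie lower in the day-6 cells labelled Ezh2-null than in the wild type, and Mpo lies higher.

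Of 10 late granule and enzyme genes, 6 rose in the null and 8 in the wild type, and the change was more negative in the null for 4. Plbd1, a phospholipase-like protein of granulocytes, was at 3.97 and 3.94 and 4.02 and 3.98 in the null cells, at background at both stages. In the wild type it went from 3.96 and 4.10 to 13.32 and 11.94, at least 146.0-fold. No rise was thus detected in the null above background, and the change was more negative than in the wild type (adjusted p = 7.79e-05). Hpse, the heparan sulphate-cleaving enzyme, reached 6.21 and 7.70 in the null and 13.12 and 13.91 in the wild type. Padi4, which converts histone arginines to citrulline, rose by at least 17.4-fold, and its smaller rise in the null (adjusted p = 0.0233) reached 0.0951 without the second day-6 null array, 1 of 3 whose removal ended the call. Slc11a1, a phagosomal metal transporter, rose by 6.50 and the arginase gene Arg2 by at least 22.3-fold, and neither differed from the wild type by the test. Cda and Alpl were not called in either genotype.

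The calprotectin, stefin and resistin-like genes encode some of the most abundant cytosolic proteins of mouse neutrophils, and they rose strongly in both genotypes. All 9 measured members rose in both genotypes, with medians of 9.34 in the null and 12.77 in the wild type. S100a8, a calprotectin subunit, was 11.57 and 8.43 in undifferentiated null cells and 7.18 and 5.79 in undifferentiated wild-type cells. At day 6 it was 19.09 and 18.73 in the null and 19.38 and 19.05 in the wild type. Stfa2l1, a stefin that inhibits cysteine proteases, went from 10.60 and 7.86 to 19.04 and 18.71 in the null and from 4.60 and 4.14 to 19.18 and 19.02 in the wild type. For both genes the genotypes were apart at day 0, where the null was higher, and overlapped at day 6. The highest signals of any cluster at day 6 were 19.46 and 19.54 in the wild type and 19.63 on both null arrays. Both genes thus ended near the top of the scale, and how far that limited their rises was not tested. At day 6 only 1 of the 9 members was called lower in the null than in the wild type. The rise was smaller in the null for 5 members, a count that ranged from 1 to 7 when 1 array was left out. It was 1 in the fit of the 8 genotype arrays. The count was 1 without the first day-6 wild-type, the first undifferentiated wild-type or the second day-6 null array, 2 without the second undifferentiated wild-type and 3 without the first day-6 null array. The median gap of the second to the first undifferentiated null array was -1.83 over the list. The difference for Wfdc21, a protease inhibitor gene, was -4.53 (adjusted p = 0.00155), while those for Stfa1, Stfa2, Stfa2l1 and S100a9 reached adjusted p of 0.0777, 0.121, 0.0805 and 0.118 when single arrays were left out.

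Genes of the NADPH oxidase, which makes superoxide in phagocytes, rose in both genotypes. Cybb, its membrane catalytic subunit, went from 5.74 and 5.13 to 15.13 and 14.61 in the null and from 5.17 and 5.04 to 17.42 and 17.11 in the wild type. The null arrays ended below the wild-type ones without overlap, and the rise was smaller (interaction -2.72, adjusted p = 0.002). In the null 5 of 6 oxidase genes rose. Among them Cyba, the partner of Cybb, rose by 3.39, the cytosolic subunits Ncf1 and Ncf4 by 2.93 and 2.60, and the proton channel gene Hvcn1 by 1.61. The median gap of the second to the first undifferentiated null array was -0.59 over the list. The smaller rise of Hvcn1 was called (adjusted p = 0.0115) but reached 0.0548 without the second undifferentiated wild-type array. Rac2, the small GTPase of the complex, was 15.80 and 15.25 and 15.96 and 15.92 and was not called (adjusted p = 0.187).

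Receptors of the mature cell rose in most of their lists. All 13 Fc and paired receptor genes rose in both genotypes, with medians of 3.53 in the null and 3.45 in the wild type. At day 6 the null was called lower than the wild type for 5 of them and higher for none. Lilrb4a went from 7.48 and 6.21 to 17.54 and 17.81 in the null, and Pirb, another inhibitory receptor, rose by at least 500.0-fold. Tyrobp, the adaptor DAP12 of activating receptors, started at 9.69 and 9.16 in the null and 12.74 and 12.52 in the wild type and ended at 15.99 and 15.93 and 16.05 and 15.64, so that its rise was larger in the null by 3.33 (adjusted p = 0.000288). Among chemotactic and growth factor receptors 12 of 15 rose, and at day 6 the null was called lower than the wild type for 5 and higher for none. Cxcr2, the main chemokine receptor of neutrophils, rose by 7.24, and Ccr1 by 7.88. Csf3r, the receptor for granulocyte colony-stimulating factor, was 10.12 and 10.39 at day 0 and 15.50 and 13.46 at day 6 in the null, with a rise of 4.22 that did not differ from the wild-type rise of 6.64 by the test (adjusted p = 0.142). Tnfrsf1a and Cxcr1 did not pass the test in the null cells (adjusted p = 0.0726 and 0.559).

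Pattern recognition receptors rose as well. Of 15 Toll-like receptor and pathway genes 11 rose and 1 fell in the null, and 11 rose and none fell in the wild type. At day 6 the null was called lower than the wild type for 6 of them and higher for 1. Tlr13, a sensor of bacterial ribosomal RNA, rose by at least 241.8-fold. The single-stranded RNA sensors Tlr7 and Tlr8 rose by at least 38.7-fold and 22.1-fold, and both rose by less than in the wild type (interaction -2.38, adjusted p = 0.00142, and -2.21, adjusted p = 0.00232). In the C-type lectin list 6 of 8 rose in the null, with a median of 5.70 against 2.41 in the wild type. The median level of the members was 6.02 in the null and 8.85 in the wild type at day 0, and 12.22 and 12.68 at day 6. At day 6 the null was called lower than the wild type for 3 members and higher for 1. Clec7a, the beta-glucan receptor Dectin-1, went from 3.80 and 3.92 to 13.30 and 14.12 in the null and from 5.73 and 5.97 to a mean of 11.99 (SD 0.021, n = 2) in the wild type, and both its day-6 arrays exceeded the wild-type ones. Its rise was larger in the null by 3.71 (adjusted p = 0.000367), as was that of Clec4d by 3.76 (adjusted p = 0.00789) and that of Clec5a by 4.41 (adjusted p = 0.0114), genes that began at 9.17 and 8.52 and 6.89 and 6.98 in the null and 11.40 and 12.54 and 12.09 and 13.60 in the wild type. Clec4e, the Mincle receptor, fell by 2.48 in the null (adjusted p = 0.00959, up to 0.0515 without the first undifferentiated null array).

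Adhesion and lysosome genes rose as well. Of 15 integrin and adhesion genes 8 rose and 1 fell in the null, and 9 rose and 1 fell in the wild type. At day 6 the null was called lower than the wild type for 5 of these 15 and higher for none. Itgam, the CD11b integrin chain of myeloid cells, went from 9.04 and 8.39 to 16.23 and 16.09 in the null, and its partner Itgb2 rose by 3.23, less than in the wild type (interaction -2.28, adjusted p = 0.00148). Itgb2l, a beta-2-like integrin chain, reached 10.28 and 10.06 in the null and 15.19 and 13.69 in the wild type. Its rise was at least 24.4-fold, and smaller than in the wild type (interaction -4.45, adjusted p = 0.00268). Among 18 lysosomal genes 17 rose and 1 fell in the null, with a median of 2.28 against 2.51 in the wild type. At day 6 the null was called lower than the wild type for 5 of the 18 and higher for 2. The cathepsin genes Ctss and Ctsb rose by 10.91 and 5.12, the saposin precursor gene Psap by 4.61 and the membrane protein gene Lamp1 by 3.03. The member that fell was Gaa, the lysosomal alpha-glucosidase, with a change of -1.55.

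Primary granule genes fell less far than in the wild type in part of the list. Of 10 members, 5 fell in the null and 7 in the wild type, with medians of -1.99 and -4.62. The genotypes already differed at day 0, with member means of 11.17 and 10.12 in the null and 12.57 and 12.45 in the wild type. At day 6 the median level of the members was 6.74 in the null and 6.80 in the wild type. Only 1 member was called higher in the day-6 null than in the day-6 wild type. Mpo, myeloperoxidase, was 17.16 and 16.79 in undifferentiated null cells and 17.71 and 17.45 in undifferentiated wild-type cells. At day 6 it was 12.03 and 9.66 in the null and 7.34 and 7.40 in the wild type. All day-6 arrays lay below the day-0 arrays, and the null day-6 arrays lay above the wild-type ones. Mpo fell by 6.12 in the null (adjusted p = 8.63e-05), less than in the wild type (interaction 4.09, adjusted p = 0.0248, up to 0.0892 without the first undifferentiated wild-type array, 1 of 5 whose removal ended the call). Ctsg, cathepsin G, was already lower at day 0 in the null (13.57 and 10.87 against 16.14 and 16.31 in the wild type) and reached 6.52 and 5.71 at day 6, near the 5.72 and 5.62 of the wild type. Elane, neutrophil elastase, was 7.45 and 5.86 at day 0 and 5.02 and 4.98 at day 6, a change that missed the threshold (adjusted p = 0.055), and Ms4a3, a four-span membrane protein of progenitors, was 9.16 and 6.62 and 6.26 and 5.30 (adjusted p = 0.059). Prtn3, proteinase 3, fell by 4.78 and the serine protease gene Prss57 fell by 1.88, while the cystatin gene Cst7 fell by 2.65 with an adjusted p of 0.0195 that rose to 0.129 without the first day-6 null array, 1 of 2 whose removal ended the call. Lyz2, lysozyme, which is kept through maturation, rose by 7.40. The count of 4 members with a more positive change in the null ranged from 0 to 5 when 1 array was left out, being 2 without either day-6 wild-type array and 0 and 1 without the first and the second undifferentiated wild-type array, and was 0 in the fit of the 8 genotype arrays. The members lay lower on the second undifferentiated null array, with a median gap of -0.97. In these bulk samples fewer cells of a type and less RNA in each cell cannot be told apart.

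Transcription factors of granulocytes and monocytes rose in most cases in both genotypes. Of 14 members 9 rose and 3 fell in the null, and 10 rose and 2 fell in the wild type. Id2, an inhibitor of helix-loop-helix factors, rose by 8.85 and Klf6 by 6.83. Cebpa and Gfi1, factors of early granulocytic commitment, fell in the null (-2.73 and -2.91), against -3.00 and -3.08 in the wild type. Cebpe, the factor needed for secondary granules, was 6.73 and 6.62 in the null at day 0 and 8.22 and 7.61 at day 6, a change of 1.24 that missed the threshold (adjusted p = 0.081), whereas it rose by 1.96 in the wild type, and the difference was not called (adjusted p = 0.723). Maf, a factor of macrophages, went from 4.96 and 4.51 to 7.56 and 7.88 in the null and from 4.31 and 4.72 to 12.39 and 14.51 in the wild type. Both day-6 wild-type arrays stood well above the null ones, and the interaction was -5.95 (SE 0.76, adjusted p = 0.00308). The immediate-early factor genes Egr1 and Nr4a1 also had a more negative change in the null, with interactions of -2.17 and -2.59 (adjusted p = 0.013 and 0.00887).

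Stem and progenitor genes were switched down, many by less than in the wild type. Of 19 members 14 fell and 1 rose in the null, 16 fell in the wild type, and the change was more positive in the null for 9. Myb, a factor of progenitor growth, went from 15.39 and 16.09 to 11.17 and 11.14 in the null and from 15.64 and 15.63 to 8.68 and 7.82 in the wild type. Cd34, a surface marker of progenitors, went from 16.96 and 16.72 to 11.81 and 11.54 in the null and ended at 9.07 and 9.79 in the wild type. Muc13, a membrane mucin, ended at 8.78 and 8.35 in the null and 5.45 and 5.11 in the wild type. In each of these 3 genes the day-6 cells labelled Ezh2-null kept more signal than the wild type, with interactions of 2.80, 2.21 and 5.02 (adjusted p = 0.00605, 0.00491 and 9.95e-05). Erg and Hlf, transcription factors of stem cells, had the more negative change in the null. Erg fell from 12.56 and 12.80 to 7.29 and 7.06 in the null, while the wild type kept 11.88 and 10.41 (interaction -4.21, adjusted p = 0.00411). Hlf began higher in the null, at 12.46 and 13.22 against 10.12 and 9.98, and reached 5.46 and 5.22 and 5.88 and 5.37 at day 6 (interaction -3.07, adjusted p = 0.00155). Flt3, the cytokine receptor of early progenitors, and Sox4 fell (-7.31 and -5.72), with no called difference from the wild type. Runx1 was the member that rose, by 1.24 (adjusted p = 0.0109, up to 0.0838 without the second day-6 null array, 1 of 2 whose removal ended the call).

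The largest falls outside these lists included Adgrl4, an adhesion receptor, from 16.05 and 15.68 to 6.36 and 5.20, the largest fall by the naming rule. Angptl7, a secreted angiopoietin-like protein, followed, at least 220.5-fold lower at day 6. Adgrl4 fell by 10.09 in the null and fell by 7.92 in the wild type. Acot3, an acyl-CoA thioesterase gene, fell by 7.79, and the sphingosine-1-phosphate transporter gene Spns2 fell by 7.43. The others were the angiopoietin gene Angpt1 (change -7.45), the secreted carboxypeptidase-like gene Aebp1 (-6.96), Csgalnact1 of chondroitin sulphate synthesis (-5.98) and the lipid flippase gene Atp10a (-5.75). Tmem176b, a membrane protein of myeloid cells, was 7.50 and 6.59 at day 6 in the null and 9.81 and 12.82 in the wild type, after 14.72 and 14.10 and 13.73 and 13.30 at day 0. Its change of -7.36 differed from the wild-type change of -2.20 (adjusted p = 0.0322), which reached 0.125 without the second day-6 null array, 1 of 5 whose removal ended the call. The differences from the wild type for Adgrl4, Angpt1 and Atp10a (adjusted p = 0.0355, 0.0236 and 0.0304) also lost their calls, at up to 0.126, 0.0901 and 0.118 without the second undifferentiated wild-type array.

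Protease genes of mast cells and basophils rose in the cells labelled Ezh2-null and not in the wild type. Of 11 protease genes 8 rose and 1 fell in the null, none rose and 3 fell in the wild type, and the change was more positive in the null for 7. Tpsb2, the mast cell tryptase, was 4.50 and 5.25 in undifferentiated null cells and 16.44 and 16.45 at day 6. In the wild type it was 4.48 and 4.42 and 4.59 and 4.36, at background at both stages. The rise in the null was at least 1896-fold (adjusted p = 4.54e-08), and the change differed from the wild type by 11.55 (SE 0.41, adjusted p = 1.41e-06). Cma1, a mast cell chymase, rose from 4.56 and 4.74 to 11.77 and 13.68, at least 143.6-fold, with wild-type arrays at 4.42 and 4.55 at day 6. Gzmb, a granzyme that mast cells also hold, went from 5.58 and 6.78 to 11.83 and 12.93, with wild-type arrays at 4.56 and 4.21. Mcpt4 and Mcpt2, further chymases, rose by at least 7.72-fold and 1.61-fold, and the difference of Mcpt4 from the wild type (adjusted p = 0.044) reached 0.137 without the second undifferentiated wild-type array, 1 of 6 whose removal ended the call.

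Cpa3 and Mcpt8, further members of the list, were above background in undifferentiated cells of both genotypes, and their course differed between the genotypes. Cpa3, mast cell carboxypeptidase, was 17.95 and 18.26 in undifferentiated null and 18.75 and 18.86 in undifferentiated wild-type cells. At day 6 it was 19.09 and 19.12 in the null and 7.25 and 8.02 in the wild type. The highest signal of any cluster on either day-6 null array was 19.63. The wild type fell by 11.17 (adjusted p = 2.96e-08), while the null rose by 1.00 (adjusted p = 0.0109, up to 0.0657 without the first undifferentiated null array, 1 of 3 whose removal ended the call), and the interaction was 12.17 (SE 0.32). Mcpt8, a basophil protease, was 7.95 and 7.67 and 11.46 and 11.58 in the null and 12.62 and 12.34 and 4.98 and 5.17 in the wild type. The null cells thus moved up and the wild-type cells down, to day-6 levels that did not overlap. Prss34, another basophil protease, fell in both genotypes, with changes of -3.28 and -3.03. Tpsg1 and Tpsab1 did not pass the test (adjusted p = 0.168 and 0.0781).

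Receptors and regulators of mast cells showed the same split. Of 15 members 11 rose and 2 fell in the null, 2 rose and 4 fell in the wild type, and 8 had a more positive change in the null (5 without the first undifferentiated wild-type array, and 5 with the spread taken from the 8 genotype arrays alone). The IgE receptor chains Fcer1a and Ms4a2 reached 6.90 and 8.67 and 9.64 and 10.55 at day 6 in the null and 4.01 and 3.81 and 5.00 and 4.91 in the wild type. Kit, the receptor for stem cell factor, fell from 14.55 and 15.43 to 11.99 and 11.71 in the null and from 13.92 and 13.98 to 6.68 and 6.32 in the wild type. Every day-6 null array of these 3 genes was above the day-6 wild-type arrays. Gata2, a factor of mast cells and progenitors, was 10.06 and 10.91 in the null and 6.54 and 6.15 in the wild type at day 6, with a change of -1.01 in the null (adjusted p = 0.0494, up to 0.306 without the first day-6 null array, 1 of 6 whose removal ended the call) and an interaction of 2.61 (adjusted p = 0.0124, up to 0.0537 without the first undifferentiated wild-type array). Cyp11a1, a steroid-synthesis enzyme found in mast cells, rose by 6.81 and the receptor gene Cd200r3 by 5.33, both with wider gaps between the day-6 arrays, 10.80 and 13.50 and 10.05 and 12.45. Slc18a2, the vesicular amine transporter, was 11.31 and 12.06 in the null and 5.67 and 5.88 in the wild type. Hpgds and Mitf rose in both genotypes, by 4.31 and 3.35 in the null.

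**Figure D3:**
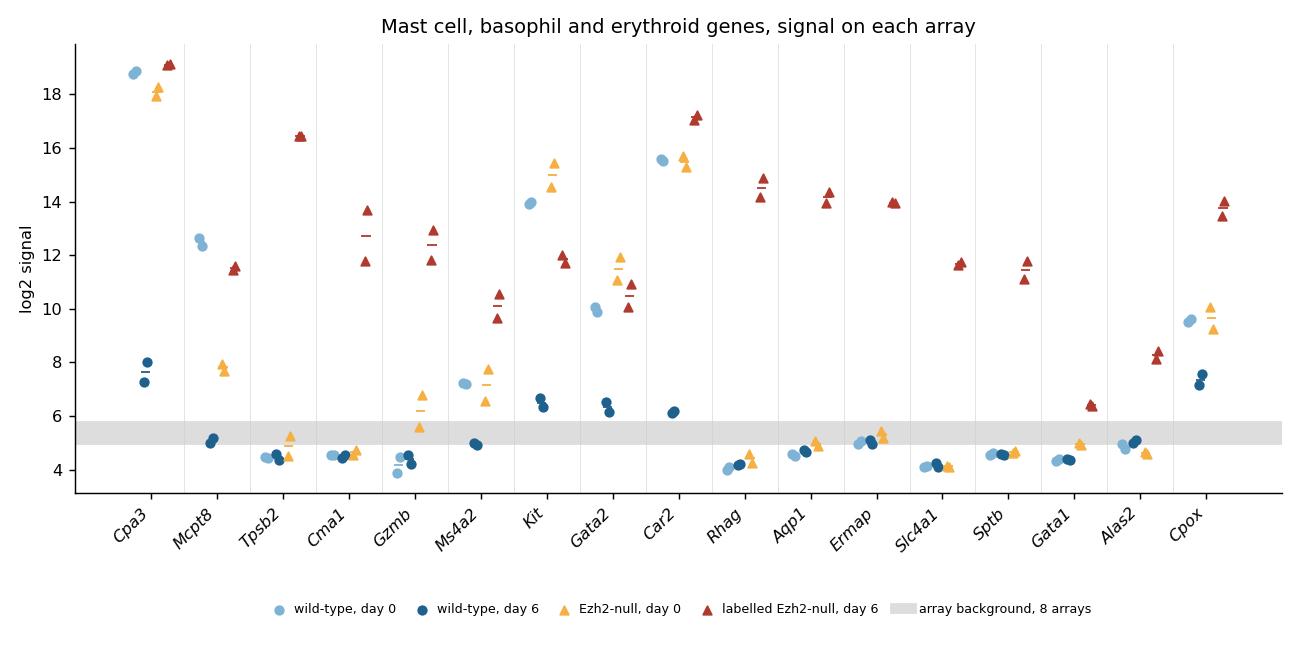
Log2 signal of 17 mast cell, basophil, erythroid and haem synthesis genes on each of 8 arrays, drawn as in the plot of neutrophil genes. The dark red triangles of the day-6 cells labelled Ezh2-null lie above the dark blue circles of the day-6 wild type for every gene shown.

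Red cell genes likewise rose in the null and not in the wild type. Of 23 erythroid genes 16 rose and none fell in the null, with a median of 3.33, whereas none rose and 4 fell in the wild type, with a median of -0.03. The change was more positive in the null for 18, and leaving out 1 array gave 18 to 19. Rhag, the Rhesus-associated glycoprotein, went from 4.60 and 4.26 to 14.17 and 14.87 in the null and was 4.17 and 4.22 in the day-6 wild type. Slc4a1, the band 3 anion exchanger of the red cell membrane, went from 4.14 and 4.10 to 11.63 and 11.73 and was 4.23 and 4.11 in the day-6 wild type. Both genes were at background on all wild-type arrays and on both undifferentiated null arrays. The rises were at least 498.0-fold for Rhag, 69.6-fold for Slc4a1, 389.1-fold for the water channel gene Aqp1, 338.0-fold for the erythroblast membrane protein gene Ermap, 59.3-fold for beta-spectrin (Sptb) and 33.1-fold for ankyrin (Ank1), with adjusted p between 5.7e-09 and 2.7e-07. Gata1, the factor that drives red cell and mast cell genes, went from 5.01 and 4.92 to 6.43 and 6.39, at least 1.8-fold, and was 4.39 and 4.34 in the day-6 wild type. Klf1, the erythroid Krüppel-like factor, lies outside the naming rule and was chosen after its values were seen. It went from 5.26 and 4.86 to 8.88 and 9.39, at least 11.9-fold, and was 4.74 and 4.82 in the day-6 wild type.

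Car2, carbonic anhydrase II, was bright in both genotypes at day 0, at 15.71 and 15.28 in the null and 15.58 and 15.51 in the wild type. At day 6 it was 17.05 and 17.23 in the null and 6.11 and 6.17 in the wild type. It rose by 1.65 in the null and fell by 9.40 in the wild type, an interaction of 11.06 (adjusted p = 1.15e-07). Tfrc, the transferrin receptor, was 13.73 and 11.36 and 13.92 and 13.82 in the null, where its change was not called (adjusted p = 0.151), and fell by 4.26 in the wild type. Gfi1b and Nfe2 were not called in the null (adjusted p = 0.0625 and 0.475). The adult haemoglobin genes had no cluster of their own symbol and were not analysed here.

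All 9 haem synthesis genes rose in the null, with a median of 3.07, while 2 rose and 2 fell in the wild type. Alas2, the erythroid form of the first enzyme of the pathway, went from 4.66 and 4.59 to 8.11 and 8.42 in the null, at least 6.52-fold, and was 4.98 and 5.11 in the day-6 wild type. Cpox, which acts late in the pathway, went from 10.08 and 9.26 to 13.47 and 14.02 in the null and from 9.51 and 9.61 to 7.16 and 7.55 in the wild type. The genotypes overlapped at day 0 and were apart at day 6 for Cpox, with an interaction of 6.28 (adjusted p = 5.21e-05). Fech, Alad, Uros and Urod, further enzymes of the pathway, rose by 3.25, 3.16, 2.01 and 1.70, each with a called difference from the wild type. The housekeeping enzyme gene Alas1 and Ppox rose by 2.70 and 3.07 without one (adjusted p = 0.146 and 0.246).

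The summed markers place these genes beside the neutrophil genes in the same day-6 arrays. The mean log2 signal of the erythroid list was 6.48 and 6.23 at day 0 and 10.06 and 10.29 at day 6 in the null, with 21 and 22 of 23 members above background at day 6, and 5.21 and 5.15 in the day-6 wild type, with 5 above background. For the mast cell and basophil proteases the means were 6.58 and 6.99 and then 9.83 and 10.24 in the null, with 9 of 11 above background at day 6, and 4.72 and 4.81 in the day-6 wild type. Secondary granule genes stood at 13.21 and 12.60 in the day-6 null and 15.65 and 14.61 in the day-6 wild type. In these bulk samples separate cells of several types and signal of all these genes in the same cells cannot be told apart. The part of an unequal mix of cells in any result was not tested.

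Monocyte and macrophage genes rose in both genotypes, and no T or NK cell marker was called in the null. Of 18 monocyte and macrophage genes 13 rose in each genotype, with medians of 3.46 in the null and 3.72 in the wild type. The change was more negative in the null for 3 and more positive for 1. At day 6 the null was called lower than the wild type for 6 and higher for 1. The median gap of the second to the first day-6 wild-type array was 1.24 over the list. Csf1r, the receptor for macrophage colony-stimulating factor, went from 6.44 and 5.90 to 13.74 and 13.03 in the null and reached 14.66 and 15.90 in the wild type, and the macrophage glycoprotein gene Adgre1 rose by 7.07. The macrophage genes Cd163, Apoe and C1qc were not called in the null (adjusted p = 0.975, 0.948 and 0.269). In the eosinophil list 4 of 8 rose, among them the granule protein gene Prg2 by 3.15 and the lipoxygenase gene Alox15 by at least 5.81-fold, while the peroxidase gene Epx stayed at background at 3.80 and 3.63. Of 7 megakaryocyte genes 1 rose, Vwf, by at least 2.55-fold, and 2 fell, Itga2b (-1.15) and Fli1 (-0.65, adjusted p up to 0.126 without the second day-6 null array, 1 of 3 whose removal ended the call). Of 9 B cell genes 1 rose and 2 fell (22.2%) in the null. Of 11 dendritic cell and MHC class II genes 2 rose and 1 fell (9.1%), and of 9 stromal and endothelial genes 1 fell (11.1%). Among the megakaryocyte genes 28.6% fell. Over all genes 9.8% rose and 17.7% fell, and in lists this small such counts do not set a list apart. Ebf1, a B cell factor, was bright in undifferentiated null cells at 11.62 and 11.98 and fell to 4.65 and 4.57, as in the wild type. No T and NK cell gene was called in the null by limma, with 6 at an unadjusted p under 0.05, and 0 and 1 of 11 lay above background on the day-6 null arrays.

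Cell cycle genes separated the genotypes at day 6. Of 38 DNA replication genes all fell in the wild type, with a median of -3.12, and 25 fell in the null, with a median of -0.96. The change was more positive in the null for 31, and 27 to 37 when 1 array was left out. The gap between the undifferentiated null arrays had a median of -0.52 over the list. Mcm2, a subunit of the replicative helicase, was 13.68 and 13.21 and 12.04 and 11.93 in the null and 13.63 and 13.42 and 7.72 and 8.27 in the wild type. The genotypes overlapped at day 0, and at day 6 the null arrays stood above the wild-type ones, with an interaction of 4.07 (adjusted p = 0.000121). Mcm3 and Mcm6, other helicase subunits, changed by -2.31 and -1.92 in the null and by -5.15 and -4.99 in the wild type. Tyms, thymidylate synthase, changed by -2.07 in the null and -3.72 in the wild type. Uhrf1 and Chaf1b, which act on newly made chromatin, fell in the null (-1.73 and -1.90). Rrm1 of ribonucleotide reductase, the primase subunit Prim2 and the sliding clamp Pcna did not pass the test in the null (-0.32, -0.42 and -0.43, adjusted p = 0.632, 0.128 and 0.183), and all 3 fell in the wild type. The called difference of Pcna reached an adjusted p of 0.0571 without the second undifferentiated wild-type array, 1 of 2 whose removal ended the call.

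The promoters of Mcm3 and Tyms were picked by the size of the called fall in the null, among replication genes with a promoter at hand. Neither the wild type nor a motif entered that choice. Both promoters hold TTTNNCGC, the pattern used here for the E2F site, with any base allowed at N. Each is 300 bases from RefSeq (GRCm38.p6), 250 before to 50 after the gene's start, in the direction of transcription, with matches of the motif on either strand in capitals. Mcm3 lies on the minus strand at chr1:20820263-20820562 and Tyms on the minus strand at chr5:30073576-30073875.
Mcm3: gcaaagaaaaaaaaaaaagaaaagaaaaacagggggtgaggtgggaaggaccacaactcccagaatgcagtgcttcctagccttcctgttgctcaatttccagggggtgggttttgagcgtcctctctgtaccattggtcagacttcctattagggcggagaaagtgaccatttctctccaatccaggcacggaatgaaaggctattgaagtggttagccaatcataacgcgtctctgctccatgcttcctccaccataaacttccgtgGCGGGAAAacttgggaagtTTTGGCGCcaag
Tyms: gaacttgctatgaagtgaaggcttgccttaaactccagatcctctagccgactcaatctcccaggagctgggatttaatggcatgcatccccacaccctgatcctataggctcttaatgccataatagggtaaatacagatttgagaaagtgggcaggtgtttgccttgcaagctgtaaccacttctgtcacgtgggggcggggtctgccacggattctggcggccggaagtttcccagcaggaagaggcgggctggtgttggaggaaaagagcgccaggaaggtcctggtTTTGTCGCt
Of 38 replication genes 31 had a promoter in the table, and 13 of these (41.9%) held the motif, which stood in 5.17% of all 32851 promoters of the same length and in 5.93% of the 27025 genes with a promoter. A match describes letters in this window and not a site in use.

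Most mitotic genes were not called in the null but fell in the wild type. Of 33 members 2 rose and 2 fell in the null, with a median of -0.12 that ranged from -0.57 to 0.46 when 1 array was left out, while 31 fell in the wild type, with a median of -2.94. Mki67, the proliferation marker Ki-67, was 15.87 and 15.42 and 17.08 and 17.29 in the null and 16.21 and 15.80 and 13.61 and 14.72 in the wild type. The null day-6 arrays lay above the other 6 of these 8 arrays, and the interaction was 3.38 (adjusted p = 0.00539), whereas the rise of 1.53 in the null (adjusted p = 0.0109) reached 0.067 without the second day-6 null array, 1 of 2 whose removal ended the call. Ccna2, cyclin A2, was 13.40 and 13.76 in the day-6 null and 9.36 and 10.49 in the day-6 wild type. Top2a, topoisomerase II, was 13.81 and 14.29 and 10.51 and 11.39, and Kif11, a spindle motor, 13.62 and 14.03 and 10.37 and 11.13. None of these 3 was called in the null (0.19, 0.14 and -0.27), and all fell in the wild type. The count of 26 members with a more positive change ranged from 10 to 32 without 1 array, and was 10 in the fit of the 8 genotype arrays. It was 13 without the first day-6 wild-type array, 10 and 17 without the first and second undifferentiated wild-type array and 10 without the second day-6 null array. On the second undifferentiated null array the members lay lower, with a median gap of -1.16, and without that array 10 were called lower in the null, against 0 or 1 without any other. The rises numbered 5 without the first undifferentiated null array and 1 without the second or without the second day-6 null array. Cdk1, the mitotic kinase, and Ttk, a spindle checkpoint kinase, were the members called lower in the null, at adjusted p of 0.0447 and 0.0481, which reached 0.229 and 0.194 without the first undifferentiated null array.

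**Figure D4:**
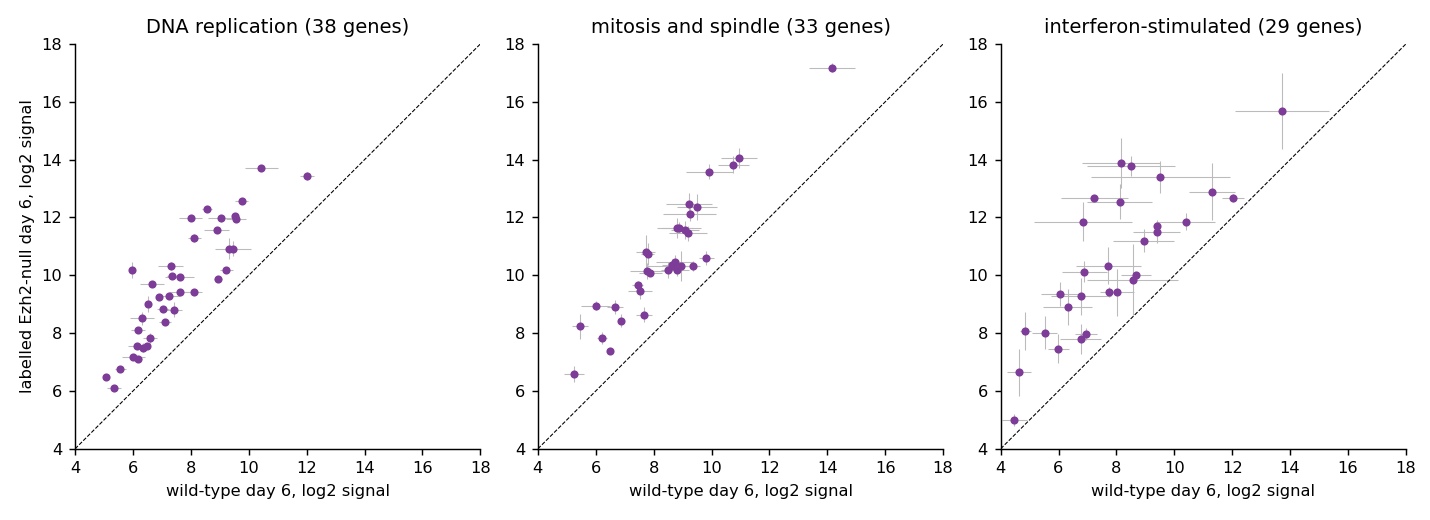
Mean log2 signal at day 6 in cells labelled Ezh2-null (y axis) against wild type (x axis) for 38 DNA replication, 33 mitosis and spindle and 29 interferon-stimulated genes, with the SD of 2 arrays as bars and a dashed line of equality. Most genes of all 3 lists lie above the line.

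Regulators of the G1 phase gave a mixed picture. Of 16 members 4 rose and 7 fell in the null, and 4 fell without the first day-6 null array. The members lay lower on the second undifferentiated null array, with a median gap of -0.55. Rb1, the retinoblastoma protein that restrains cycle entry, rose by 3.07 in the null and 1.73 in the wild type, and E2f2 by 4.25 and 3.87. The kinases Cdk6, Cdk4 and Cdk2 fell (-3.06, -1.95 and -1.64), and the cyclin gene Ccnd3 rose by 1.5. Ccne1, cyclin E1, was 8.50 and 6.58 and then 9.52 and 9.72 in the null and 6.26 and 6.42 in the day-6 wild type, and its rise (adjusted p = 0.0119) and its difference from the wild type (0.0228) reached 0.068 and 0.0868 without the second day-6 null array. Of 7 cyclin-dependent kinase inhibitors 1 rose, Cdkn1b, by 1.62, while 9.8% of all genes rose. Cdkn2a, the Ink4a/Arf locus that PRC2 is known to silence, was 8.94 and 9.25 and 9.35 and 9.85 in the null, with no called change (adjusted p = 0.146).

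Ribosome biogenesis genes fell in both genotypes, by less in the null in part of the list. Of 16 members 15 fell in the null with a median of -1.99 and all in the wild type with a median of -3.45, and 8 had a called difference (5 and 4 without the first and second undifferentiated wild-type array, 5 without the second day-6 null array and 5 in the fit of the 8 genotype arrays). Nop58, a box C/D ribonucleoprotein, went from 15.95 and 16.21 to 13.76 and 13.98 in the null and reached 10.17 and 10.83 in the wild type. Dkc1, the pseudouridine synthase dyskerin, reached 11.14 and 11.13 in the null and 7.71 and 8.0 in the wild type. The day-6 arrays of the genotypes were clearly apart for both genes, with interactions of 3.19 and 3.14 (adjusted p = 0.000422 and 3.29e-05). Polr1b and Nop2 fell (-3.10 and -2.66) with no called difference.

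Among genes of energy and lipid metabolism, 5 of 18 respiratory chain genes fell in the null, and 13 in the wild type, with 1 called difference, a count of 6 without the first undifferentiated null array and of 0 without any of the other 7 arrays, while 1 member had a more negative change without the second undifferentiated null array. The null count was 13 without the second undifferentiated null array, on which the members lay lower, with a median gap of -0.76. Cycs, cytochrome c, fell by 1.52, and the complex III subunit gene Uqcrc2 fell by 1.12. Cholesterol synthesis genes fell in 4 of 17 cases in the null, Lss, Dhcr7, Stard4 and Insig1, and the count was 13 without the second undifferentiated null array and 2 without the first undifferentiated or the first day-6 null array. The median gap between arrays of this list was -1.77 at day 0 and 0.81 at day 6, and the calls of Lss and Insig1 were lost without single arrays (adjusted p up to 0.16 and 0.205 without the first day-6 null array). Of 13 glycolysis genes 2 rose and 1 fell in the null, with 5 rises without the first and 6 falls without the second undifferentiated null array. The gap between these arrays had a median of -0.85 over the list, and the list's median change ranged from -0.53 to 0.34 when 1 array was left out. Slc2a3, a glucose transporter, had a mean of 10.87 (SD 0.185, n = 2) at day 0 in the null and 7.20 and 7.05 in the wild type, and 13.07 and 12.51 and 14.62 and 13.35 at day 6. Hk3, the myeloid hexokinase, was lower at day 0 in the null, at 7.33 and 6.65 against 13.10 and 12.68, and rose by 2.92. The differences in change were -4.94 for Slc2a3 and 3.33 for Hk3 (adjusted p = 0.000839 and 0.00663). In the null 27.8% of the respiratory chain, 23.5% of the cholesterol synthesis and 7.7% of the glycolysis genes fell. Over all genes 17.7% fell and 9.8% rose in the null, and in lists this small such null counts do not set a list apart.

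Interferon-stimulated genes, the antiviral genes that type I interferon turns on, rose in both genotypes and by more in the null. Of 29 members 27 rose and none fell in the null, with a median of 3.63, and 17 rose in the wild type, with a median of 1.48. The change was more positive in the null for 17 (11 and 9 without the first and second undifferentiated wild-type array, 9 without the second day-6 null array and 10 in the fit of the 8 genotype arrays). The gap between the day-6 null arrays had a median of 0.72 over the list, and that between the day-6 wild-type arrays 1.11, with the second array higher in both. The part of these gaps in the result was not tested.

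The promoters of Rsad2 and Ifit1 were picked by the size of the called rise in the null, among genes of the list with a promoter at hand. Neither the wild type nor a motif entered that choice. Both promoters hold AAANNGAAA, the pattern used here for the core of the interferon response element. They are 300 bases each from RefSeq (GRCm38.p6), in the direction of transcription, with matches on either strand in capitals. Rsad2 lies on the minus strand at chr12:26456403-26456702 and Ifit1 on the plus strand at chr19:34640639-34640938.
Rsad2: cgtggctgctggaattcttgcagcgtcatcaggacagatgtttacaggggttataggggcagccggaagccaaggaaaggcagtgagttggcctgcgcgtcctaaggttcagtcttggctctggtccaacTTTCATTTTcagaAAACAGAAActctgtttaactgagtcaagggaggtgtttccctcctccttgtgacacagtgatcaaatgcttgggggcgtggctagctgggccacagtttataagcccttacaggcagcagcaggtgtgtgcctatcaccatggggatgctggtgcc
Ifit1: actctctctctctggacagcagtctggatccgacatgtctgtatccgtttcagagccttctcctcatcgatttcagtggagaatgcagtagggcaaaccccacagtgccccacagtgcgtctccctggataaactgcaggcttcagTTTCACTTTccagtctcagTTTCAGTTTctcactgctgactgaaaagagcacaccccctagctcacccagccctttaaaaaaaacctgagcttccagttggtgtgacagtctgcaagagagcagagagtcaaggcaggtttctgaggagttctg
Of 29 interferon-stimulated genes 21 had a promoter in the table, and 14 of these (66.7%) held the motif, against 10.6% of all 32851 promoters and 12.1% of all genes with one. For the erythroid list the GATA motif AGATAA stood in 4 of 17 promoters (23.5%), against 11.2% of all promoters and 12.7% of all genes. These counts describe letters only.

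Rsad2, the antiviral enzyme viperin, went from 5.62 and 5.25 to 13.54 and 14.02 in the null and from 5.45 and 5.47 to 7.43 and 9.57 in the wild type. Ifit1, which binds foreign RNA, went from 5.39 and 5.09 to 12.70 and 12.65 in the null and reached 6.42 and 8.06 in the wild type. The day-6 null arrays of both genes lay above both wild-type arrays. The rises in the null were at least 298.1-fold and 138.5-fold, with interactions of 5.31 (SE 0.76, adjusted p = 0.00535) and 5.18 (SE 0.60, adjusted p = 0.00191). Usp18, the protease that removes ISG15 from proteins, rose by 8.49, and Irf7, the factor that amplifies interferon production, by at least 126.3-fold, and both changes were larger in the null (adjusted p = 0.00453 and 0.00468). Oas2 rose by at least 231.3-fold, with wild-type arrays of 7.81 and 11.20 at day 6 and no called difference (adjusted p = 0.177). The difference for Oasl2 (adjusted p = 0.0151) reached 0.0657 without the second day-6 null array, 1 of 3 whose removal ended the call. Bst2 and Mx2 did not pass the test in the null (adjusted p = 0.161 and 0.154).

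Cytokine and chemokine genes rose in both genotypes. Of 23 members 14 rose and 1 fell in each genotype, and limma called no difference between the genotypes, with 7 at an unadjusted p under 0.05. Ccl6, a chemokine of myeloid cells, rose by at least 175.6-fold and Csf1, the macrophage growth factor, by 5.31. Il1b, the inflammatory interleukin-1 beta, was 12.97 and 8.83 on the day-6 null arrays after 4.99 and 4.83 at day 0. Its day-6 arrays differed from each other far more than those of Ccl6, at 13.21 and 12.82. Ccl3 rose by 3.67 with an adjusted p of 0.0176 that reached 0.0928 without the second day-6 null array, 1 of 2 whose removal ended the call. In the eicosanoid list, where 4 of 10 rose and 2 fell in the null, Alox5ap, the activating protein of leukotriene synthesis, rose by 3.18, the thromboxane synthase gene Tbxas1 rose by at least 10.8-fold and the phospholipase gene Pla2g4a fell by 3.65. Lta4h, which makes leukotriene B4, was 11.68 and 11.28 in the day-6 null and 14.79 and 13.69 in the day-6 wild type (interaction -2.13, adjusted p = 0.0327, up to 0.127 without the second undifferentiated wild-type array, 1 of 5 whose removal ended the call). Of the BCL2 family, which controls cell death, the survival gene Mcl1 rose by 2.33 and Bcl2 fell by 1.79, with no called difference from the wild type in any of 13 members (3 at an unadjusted p under 0.05). Of 8 nuclear lamina and envelope genes 2 rose and 3 fell (37.5%) in the null, and in the eicosanoid list 20% fell. Over all genes 9.8% rose and 17.7% fell, and in lists this small such counts do not set a list apart. Lmnb1 of the lamina, which maturing neutrophils are known to reduce, fell by 1.15 in the null and fell by 3.02 in the wild type (interaction adjusted p = 0.00814).

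Genes of the Polycomb complexes themselves fell in most cases. Of 12 PRC2 members 7 fell (58.3%, against 17.7% of all genes) and 3 rose in the null, and 8 fell and 3 rose in the wild type. Ezh1, the alternative catalytic subunit, went from 9.31 and 9.55 to 11.03 and 10.79 in the null and from 9.43 and 9.39 to 12.22 and 12.04 in the wild type. It rose in both, by 1.48 and 2.72, and the difference (adjusted p = 0.0423) reached 0.154 without the second day-6 null array, 1 of 7 whose removal ended the call. Eed, the subunit that reads the mark, rose by 0.94, and Phf1, an accessory subunit, by 1.92. Mtf2 and Phf19, accessory subunits of the same family, fell (-2.15 and -2.24), and the histone binders Rbbp7 and Rbbp4 fell (-1.75 and -1.07). Suz12 was not called in the null (-0.41, adjusted p = 0.0633), and the small falls of Jarid2 and Aebp2 reached an adjusted p of 0.148 without the first and 0.0723 without the second day-6 null array. Of 16 PRC1 genes 11 fell (68.8%) in the null, among them Bmi1 (-1.90) and Pcgf5 (-2.23). The DNA methylation genes Dnmt3b, Tet1 and Dnmt1 fell (-3.64, -2.78 and -1.08), and none of 7 members had a called difference between genotypes (2 at an unadjusted p under 0.05).

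Developmental genes that PRC2 is known to silence were mostly at background in the null cells at both stages. Of 33 HOX genes measured, 6 were above background on any null array, 1 rose and 8 fell (24.2%, against 17.7% of all genes), and 4 of these calls were of genes at background on every null array. Without either day-6 null array or the first undifferentiated null array 5 fell and none rose. Hoxc10 was 6.16 and 5.80 in undifferentiated null cells and 3.95 and 3.56 at day 6, and 3.46 and 3.84 and 3.63 and 3.58 in the wild type. It was thus above background only in the undifferentiated null cells among these groups, and it fell by at least 1.54-fold. Neither this bound nor that of Hoxa6 held with the median negative control as the background, which the brighter group did not exceed. Hoxa6 was at least 1.64-fold lower at day 6, and Hoxa5 fell by 1.27. Hoxb8, which the array also reads from its own gene, was 5.48 and 5.54 and 6.08 and 6.10 (adjusted p = 0.0149, up to 0.0732 without the second day-6 null array, 1 of 3 whose removal ended the call). Of 41 other developmental factors 8 were above background on any null array, and 6 fell (14.6%) and 1 rose in the null. Foxa1, a factor of endoderm, went from 8.72 and 7.97 to 6.29 and 5.96 in the null and was 4.60 and 4.65 and 4.87 and 4.80 in the wild type. Tbx15, a T-box factor, went from 10.01 and 10.77 to 8.97 and 8.52 and was 4.53 and 4.87 in the day-6 wild type. Both were at background in the wild type and above it in the null at both stages. On the second day-6 null array Foxa1, at 5.96, did not exceed the median negative control of 6.14. The fall of Foxa1 was called as different from the wild type (-2.43, adjusted p = 0.00306), that of Tbx15 not (adjusted p = 0.0822). Among 7 fetal genes, Lin28b, an RNA-binding protein of fetal progenitors, went from 8.0 on both arrays to 5.56 and 5.14 in the null and was 4.24 and 4.31 in undifferentiated wild-type cells (interaction -2.56, adjusted p = 0.000641). Hmga2 and Igf2bp3 fell in both genotypes (-1.96 and -2.71 in the null).

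Beyond the lists, some genes with very unequal changes were bright in a single group of the design. Angptl7 was 12.96 and 13.32 in undifferentiated null cells and 4.80 and 4.54 at day 6, and 4.29 and 4.41 and 4.38 and 4.48 in the wild type. Cited1, a transcriptional coactivator, was 11.74 and 9.92 in undifferentiated null cells and 5.36 and 5.21 at day 6, with wild-type arrays of 5.08 and 4.98 at day 0. Both were bright only in undifferentiated null cells among the 4 groups. Aldh1a1, a retinaldehyde dehydrogenase, was bright only at day 6 in the null, at 12.26 and 12.86 after 4.66 and 4.40, at least 127.8-fold higher. Adgrg7, an adhesion receptor, was bright only in undifferentiated wild-type cells, at 12.23 and 12.44, and was 4.23 and 4.12 and 3.90 and 3.92 in the null.

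Other genes rose in the wild type and by less or without a call in the null. Olfml2b, an extracellular matrix protein, rose by at least 5.08-fold in the null and reached 8.23 and 7.58 in the null and 14.17 and 12.69 in the wild type at day 6. Pla2g7, a secreted phospholipase of macrophages, rose by at least 2.2-fold in the null and reached 6.82 and 6.57 and, in the wild type, 11.38 and 12.32. Pltp, the phospholipid transfer protein, was 6.40 and 6.26 in the null, where it was not called (adjusted p = 0.929), and 9.91 and 12.02 in the wild type. In all 3 the day-6 wild-type arrays were above the day-6 null arrays, with interactions of -5.34, -5.02 and -5.52 (adjusted p = 0.00135, 0.000157 and 0.00615). Peli2, a ubiquitin ligase of Toll-like receptor signalling, was already 8.75 and 9.06 at day 0 in the null and was 8.58 and 7.86 at day 6, while it went from 5.78 and 5.47 to 10.73 and 9.50 in the wild type. Gpr84, a fatty acid receptor of myeloid cells, was 8.55 and 6.61 and 7.30 and 5.71 in the null and rose by at least 11.9-fold in the wild type, with a difference (adjusted p = 0.0272) that reached 0.108 without the second undifferentiated wild-type array, 1 of 4 whose removal ended the call.

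**Figure D5:**
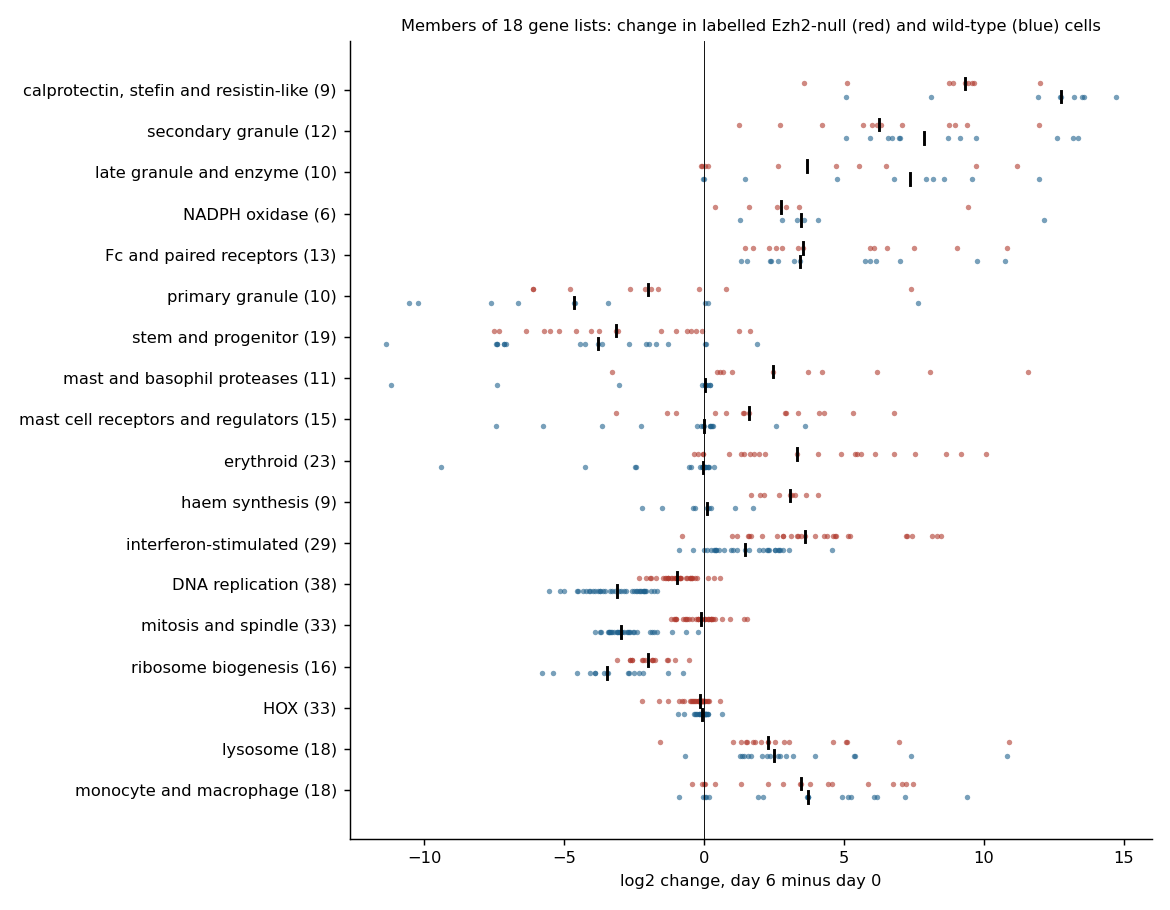
Log2 change on differentiation of the members of 18 gene lists in cells labelled Ezh2-null (red) and in the wild type (blue), with the median of each list as a black bar. The erythroid medians are 3.33 and -0.03, those of DNA replication -0.96 and -3.12, and those of the interferon-stimulated genes 3.63 and 1.48.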

How the data were processed

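Mouse Transcriptome Array 1.0 signals of 12 arrays in 6 groups of 2 were used. The deposited values are log2 signals for 72688 entries, normalized by the authors; Affymetrix Expression Console and Transcriptome Analysis Console are named, per the submitters' processing notes, while versions, summarisation and background correction have no description there. The genome build is not given in the sources used here. How strongly the authors' background correction compressed low signals is therefore unknown, and the number of arrays limits the precision.

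From these values, 6732 control probe sets were left out and 65956 transcript clusters were tested with limma 3.58.1 in R 4.3.3 (lmFit on 6 group means, eBayes, residual df 6), with Benjamini-Hochberg adjustment over all clusters and calls at an adjusted p under 0.05. The contrasts were day 6 minus day 0 in each genotype and their difference. Groups came from the sample titles. Of the clusters, 31216 had 1 gene symbol, 1534 had several and 33206 had none in the platform annotation. Symbols were updated through Entrez identifiers for 23430 clusters, which changed 874. For 364 genes with several clusters the one with the highest mean over all 12 arrays stands for the gene.

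Named genes were Ezh2, the 15 largest rises and falls, the 12 most positive and 12 most negative genotype differences, up to 6 called members in each direction and 3 uncalled members of each of 43 gene lists, all members of lists with up to 12 genes, and a set of landmark genes. Predicted genes and small RNAs were left out of the ranked sets. The members and the lists were chosen with earlier results of these data known, so that counts over a list are descriptions. "At least" folds compare the mean of the brighter group with the background of the dimmer one. Promoter sequences came from RefSeq (GRCm38.p6), and none of the array's own coordinates were used. Alternatives changed the arrays in the fit, the normalization, the filter on dim clusters, the clusters tested, the variance prior, the replicate block and each array in turn.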

Additional observations from a re-analysis of the deposited data

Results flagged for a closer look

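The results below were picked out because limma's test of the difference in change between the genotypes passed the threshold, or because they count the genes of a list that did. They were 2911 clusters in all. By list, the counts with the more positive change in the cells labelled Ezh2-null were 7 mast and basophil proteases, 8 mast cell receptors and regulators, 18 erythroid, 7 haem synthesis, 31 DNA replication, 26 mitosis and spindle, 17 interferon-stimulated and 8 ribosome biogenesis genes. The count with the more negative change was 5 for the calprotectin, stefin and resistin-like genes. Lists that were not picked out also held such genes. Secondary granule genes had 5 more negative and 1 more positive, and late granule and enzyme genes 4 more negative. Stem and progenitor genes had 9 more positive and 2 more negative. Over all genes 4.18% had the more positive change and 2.54% the more negative.

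By fitted value, the 12 named genes with the most positive differences (log2 change in the null minus that in the wild type) were Cpa3 at 12.17, Tpsb2 at 11.55, Mcpt8 at 11.11, Car2 at 11.06, Rhag at 9.93, Aqp1 at 9.04, Ermap at 8.65, Cma1 at 8.13, Aldh1a1 at 8.02, Slc4a1 at 7.51, Adgrg7 at 7.24 and Sptb at 6.84. The 12 most negative were Plbd1 at -8.55, Angptl7 at -8.55, Maf at -5.95, Pltp at -5.52, Lrg1 at -5.46, Cited1 at -5.41, Olfml2b at -5.34, Peli2 at -5.17, Tmem176b at -5.17, Stfa2l1 at -5.08, Pla2g7 at -5.02 and Gpr84 at -4.97. Where a group lay at background, as for Tpsb2, Plbd1 and Angptl7, the fitted value has no exact size, and neither has its rank. Groups of 2 arrays are too small for a check for a single outlying array.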

How the results depend on the processing

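No named gene reversed its direction as a call under any alternative. Of 410 named genes, 273 were called for the Ezh2-null differentiation and 143 for the difference between genotypes, and the 4 compared arrays alone ended 47 of the former calls and the 8 genotype arrays 46 of the latter. Testing only clusters with 1 symbol gave 9157 calls with 3293 rises for the null and 10389 with 4084 rises for the wild type, where fewer clusters were tested. With the 4 compared arrays the null counts were 7591 called, 3907 rises and 3684 falls. With the 8 genotype arrays the genotype difference gave 1352 calls, 898 more positive and 454 more negative. Fewer arrays estimate the spread in both fits. The GSK343 and vehicle replicates left out correlated at r = 0.9935 and 0.9953, and the undifferentiated null arrays at 0.9843. The part of either in these counts was not tested. In the null, the 4 compared arrays alone lowered the rises of mast cell receptors from 11 to 7 and of cytokines from 14 to 9, and the falls of HOX genes from 8 to 3, of developmental factors from 6 to 3, of respiratory chain genes from 5 to 3 and of cholesterol synthesis genes from 4 to 1. Quantile normalization gave 8 respiratory chain genes that fell, and without dim clusters 8 secondary granule genes rose by less in the null, against 5.

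Leaving out 1 array at a time gave 10356 to 16463 calls (5351 to 8629 rises, 4722 to 7834 falls) for the null, with the fewest falls without the first day-6 null array. The range was 12543 to 18642 (6145 to 9651 rises, 6398 to 8991 falls) for the wild type and 1511 to 3758 (1015 to 2218 more positive, 496 to 1540 more negative) for the genotype difference. The latter gave 1511 and 1636 without the second and first undifferentiated wild-type array and 1610 without the second day-6 null array. A group left with 1 array is assumed to vary like the others.

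The labels number the replicates of every group but do not say that a number pairs arrays, and with 2 pairs the null arrays' deviations had r = 0.1035, so the block was kept as an alternative. The replicate block gave 14561 calls for the null, 16346 for the wild type and 2694 for the genotype difference. It ended 7 of the named calls in the null, those of Gata2, Cdk1, Ttk, Bcl2l1, Foxc1, Lhx2 and Tgfb1, and 7 of the genotype differences, those of Ezh1, Tmem176b, Cdk1, Lmna, Ms4a6c, Phf19 and Rbbp7. In the wild type that correlation was -0.1089, and a crossed pairing, chosen after seeing the data, gave 16230 calls (8266 rises, 7964 falls). With the median negative control as the background, 53 of 68 bounds of named genes were kept, such as those of Tpsb2 (1714), Mmp9 (981) and Angptl7 (127). In 9, among them Retnlg, Cybb, Pirb, Ermap, Rsad2 and Oas2, the dimmer group exceeded that limit on an array, and in 6, Hoxa6, Hoxc10, Bmf, Lmna, Ptges and Sox21, the brighter group did not exceed it. Differences of clusters at background cannot be sized on these arrays.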
